A study of Mus musculus with 12 samples.

Results

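Transcripts of 10 genes of brown and white fat cells were followed across 12 mouse thymic lymphomas. The genes were chosen by name and matched by Ensembl identifier, which found 10 of 10 among the 37991 genes of the count table, and 9 of them passed the filter on low counts (Lep did not). A set of 4 stands for brown fat (Ucp1, Cidea, Prdm16 and Ppargc1a), and 6 stand for fat cells in general or for white fat (Adipoq, Lep, Cfd, Plin1, Fabp4 and Pparg). All 12 tumours came from C57BL/6 mice of the genotype p53neo/R172H;R26CreER/GNZ, and every animal received tamoxifen by weekly injection into the abdomen. The drug switched on a Cre recombinase that restored wild-type p53. A mutant R172H allele was present in all of them, so responders and non-responders share it. Tumours were scored by magnetic resonance imaging as responder (8 tumours) or non-responder (4 tumours), and each was frozen after its last scan and gave 1 RNA-seq library. No untreated tumour, piece of fat or normal thymus is among the samples, and the labels give neither the age of the mice nor the fat content of the pieces.

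Fat cells store triglyceride in a droplet coated by perilipin and send hormones such as adiponectin and leptin into the blood. Brown fat cells in addition burn fuel for heat: UCP1 lets protons leak across the inner mitochondrial membrane, and PRDM16 and PGC-1alpha are the regulators best known for that programme. In mice the thymus lies in the mediastinum, close to the heart and to depots of brown and white fat. In a bulk library, fewer fat cells and less RNA per fat cell cannot be told apart.

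The sequences below are the 250 bases upstream of the RefSeq start (GRCm38.p6) of the gene that defines brown fat, of the general fat cell hormone set against it throughout, and of the white fat hormone. Capitals mark matches, on either strand, to the nuclear receptor half-site AGGTCA or to the C/EBP palindrome TTGCGCAA.

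Ucp1, chr8:83290098-83290347, plus strand: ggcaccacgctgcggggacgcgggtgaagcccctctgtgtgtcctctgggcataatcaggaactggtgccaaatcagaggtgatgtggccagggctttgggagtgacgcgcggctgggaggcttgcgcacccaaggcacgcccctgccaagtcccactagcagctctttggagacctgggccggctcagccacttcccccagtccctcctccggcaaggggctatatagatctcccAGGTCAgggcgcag

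Adipoq, chr16:23146286-23146535, plus strand: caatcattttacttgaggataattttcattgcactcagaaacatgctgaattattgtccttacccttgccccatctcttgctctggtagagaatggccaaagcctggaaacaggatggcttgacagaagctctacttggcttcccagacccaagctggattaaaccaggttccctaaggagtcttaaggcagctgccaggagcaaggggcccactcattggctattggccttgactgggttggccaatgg

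Lep, chr6:29059971-29060220, plus strand: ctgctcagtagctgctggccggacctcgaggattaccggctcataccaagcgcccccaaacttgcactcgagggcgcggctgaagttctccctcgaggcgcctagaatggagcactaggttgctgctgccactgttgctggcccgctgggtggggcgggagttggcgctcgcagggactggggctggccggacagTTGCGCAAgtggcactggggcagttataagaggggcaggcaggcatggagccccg

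The half-site stood in the Ucp1 window once, with its first base 14 bases before the start, and was found in 14% of the 32851 promoter windows of the same length. Lep held the C/EBP palindrome 55 bases before its start, a sequence present in 0.164% of the windows. A direct repeat of the half-site spaced by 1 base stood in none of the windows of the 8 members searched, and in 0.0335% of all. TATAAA was also searched on both strands and occurred in none of these 3 windows and in 12.4% of all. These matches describe letters, not occupied sites.

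Fat transcripts were found in each of the 12 tumours, with large differences between tumours. Levels are given as CPM, counts scaled to a fixed library total, and fold changes on the log2 scale as non-responder minus responder. Of the 10 genes, 8 were at their highest in responder 4, while Ucp1 peaked in responder 5 and Prdm16 in responder 7. Non-responder 1 was the lowest tumour for Ucp1, Cidea, Prdm16, Ppargc1a and Adipoq. Responder 8 was the lowest for Plin1 and Cfd. The plot of single tumours shows this spread for each gene.

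**Figure D1:**
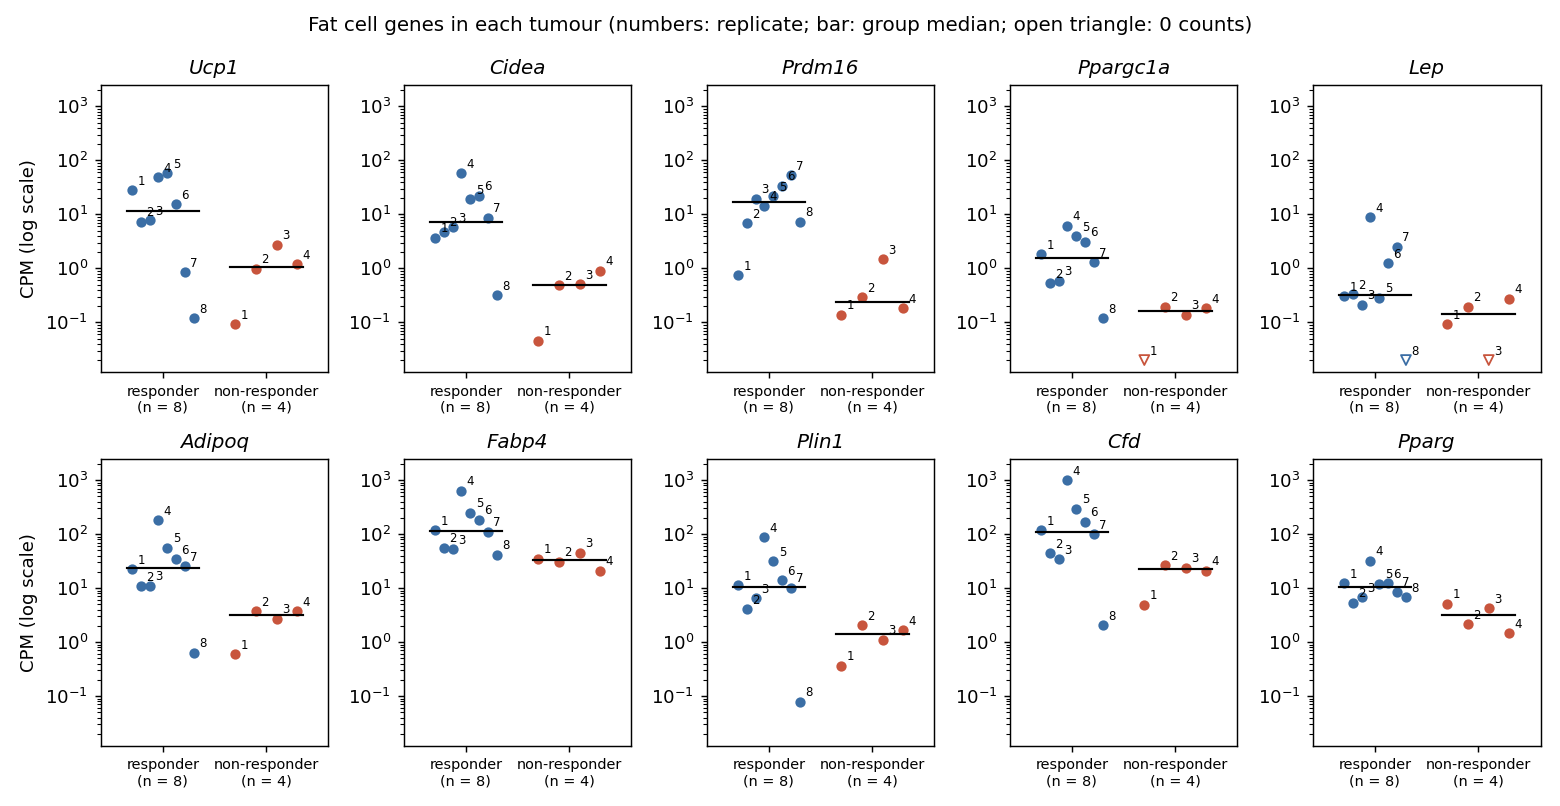
Levels of the 10 fat cell genes in each tumour, as CPM on a log scale, for 8 responders and 4 non-responders; numbers give the replicate, bars the group median and open triangles a count of 0. Responder 4 tops 8 of the 10 panels, and responder 8 lies above the non-responders only in the panels of Prdm16 and Pparg.

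Ucp1, which encodes the heat-producing proton channel, ranged in responders from 0.119 CPM (3 counts) through a median of 11.8 CPM to 57.6 CPM (1406 counts). The non-responders 1 to 4 stood at 0.0918, 0.981, 2.76 and 1.18 CPM. Responders 7 and 8 lay within that low range and the other 6 above it. On the log2 scale the fold change was -4.04 (SE 1.37, adjusted p = 0.126 in edgeR), and Ucp1 (ENSMUSG00000031710) lies on chromosome 8 from 83290352 to 83298452 (GRCm38). Without non-responder 3 the fold change was -4.75.

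Cidea (ENSMUSG00000024526) encodes a lipid droplet protein that is abundant in brown fat. It was at 0.317 CPM in the lowest responder, 7.23 CPM at the median and 57.6 CPM in responder 4. In non-responders it was at 0.0459, 0.490, 0.506 and 0.908 CPM, a range that held responder 8 alone among the responders. On the log2 scale the fold change was -4.95 (SE 1.25, adjusted p = 0.117 in edgeR), and without responder 4 it was -4.21.

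Ppargc1a (ENSMUSG00000029167), the gene of the coactivator PGC-1alpha, was the scarcest of the 4 brown genes. Responders ran from 0.119 through 1.58 to 6.18 CPM. Non-responder 1 had 0 counts, which allows up to 0.138 CPM, and the other non-responders were at 0.196, 0.138 and 0.182 CPM. Responder 8 was again the single responder inside the non-responder range (log2 difference -4.05, SE 1.08, adjusted p = 0.117 in edgeR). The gene is also active in muscle, and lies on chromosome 5 from 51454250 to 51567726.

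Prdm16 (ENSMUSG00000039410), a zinc-finger regulator of brown fat identity that is also known from blood stem cells and leukaemia, followed another order of tumours. Its responder values ran from 0.754 CPM in responder 1 through a median of 17.0 to 53.6 CPM in responder 7, which was a tumour low in Ucp1. Non-responders stood at 0.138, 0.294, 1.47 and 0.182 CPM (3, 6, 32 and 4 counts). Responder 1, with the third highest Ucp1 level, was the single responder that overlapped them. Responder 8, low for the other brown genes, had 7.34 CPM. The log2 fold change of -5.23 (SE 1.12, adjusted p = 0.117 in edgeR) was the lowest of the 9 genes tested, and it was -6.54 without non-responder 3. Prdm16 spans chromosome 4 from 154316125 to 154636873.

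Adipoq (ENSMUSG00000022878) encodes the hormone adiponectin, made by brown and white fat cells alike. It spanned 0.635 to 180 CPM in responders, with a median of 24.1 CPM, against 0.596, 3.73, 2.71 and 3.77 CPM in non-responders. All responders except responder 8 were above all non-responders. On the log2 scale the fold change was -3.98 (SE 1.18, adjusted p = 0.117 in edgeR), and without responder 4 it was -3.09. Adipoq lies on chromosome 16 from 23146536 to 23158028.

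Lep (ENSMUSG00000059201; chromosome 6, from 29060220 to 29073877), the gene of the satiety hormone leptin and the member most typical of white fat, was near the limit of detection. Responders held 0 to 271 counts, that is 0 to 8.82 CPM with a median of 0.315 CPM, and 3 of them reached 10 counts. Those 3 were responder 4 with 271 counts, responder 7 with 67 and responder 6 with 37. The non-responders had 2, 4, 0 and 6 counts (0.0918, 0.196, 0 and 0.272 CPM). Lep did not pass the filter on low counts. Fitted with no filter it had a log2 fold change of -3.45 (SE 1.44, adjusted p = 0.221 in edgeR), of -2.23 without responder 4 and of -4.11 without non-responder 4. A count of 0 allows up to 0.119 CPM in responder 8 and 0.138 CPM in non-responder 3.

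Cfd (ENSMUSG00000061780), which encodes complement factor D (adipsin), a protease secreted by fat cells, gave the most counts of all members. It reached 30326 counts in responder 4 and 52 in responder 8. Responders ran from 2.06 through 108 to 987 CPM, and non-responders were at 4.96, 26.4, 24.1 and 20.9 CPM. Responder 8 was below all 4 non-responders and the other 7 responders were above them (log2 difference -3.51, SE 1.24, adjusted p = 0.132 in edgeR), and without responder 4 the log2 difference was -2.50. Cfd lies on chromosome 10 from 79890853 to 79892655.

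Plin1 (ENSMUSG00000030546; chromosome 7, from 79720218 to 79732903), the perilipin that coats the fat droplet, ran from 0.0793 (2 counts) through 10.7 to 88.7 CPM in responders. It was at 0.367, 2.06, 1.10 and 1.68 CPM in non-responders, with responder 8 as the lowest tumour of all. Its log2 fold change was -3.99 (SE 1.27, adjusted p = 0.118 in edgeR), or -3.08 without responder 4. Fabp4 (ENSMUSG00000062515; chromosome 3, from 10204088 to 10208576), a fatty acid carrier of fat cells, capillary endothelium and macrophages, differed less. It was at 41.8 to 643 CPM in responders, with a median of 114 CPM, and at 35.1, 30.8, 45.6 and 21.0 CPM in non-responders (log2 difference -2.46, SE 0.74, adjusted p = 0.117 in edgeR), and its log2 difference was -1.81 without responder 4.

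Pparg (ENSMUSG00000000440), the nuclear receptor that drives fat cell formation, was the member with the smallest difference and the one without overlap between groups. Responders ran from 5.39 through 10.4 to 32.0 CPM, and non-responders were at 5.18, 2.16, 4.23 and 1.45 CPM. The lowest responder was thus close above the highest non-responder. On the log2 scale the fold change was -1.88 (SE 0.54, adjusted p = 0.117 in edgeR). Macrophages express this gene too. It lies on chromosome 6 from 115360951 to 115490399.

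None of the 9 genes tested passed the threshold of 0.05 on the edgeR adjusted p, which 0% of the 18612 tested genes passed. At an unadjusted edgeR p under 0.05, 9 of 9 were lower in non-responders, against 16.1% of all tested genes in that direction and 23.8% in either. DESeq2 called 9 of 9 as lower, where it called 10.5% of genes as lower. In limma-voom, Fabp4 (adjusted p = 0.0459) and Pparg (adjusted p = 0.0398) passed, 2 of 9, beside 4.48% of genes. Groups did not overlap for 1 of 9, Pparg, beside 1.18% of genes. Ucp1, Cidea, Prdm16, Ppargc1a and Plin1 had 10 counts in fewer than 4 non-responders and entered the test through the responders, so these counts describe the members and are no test of them as a group. With each tumour left out in turn, 0 of the members passed in edgeR and 9 or 10 were lower at an unadjusted p under 0.05.

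**Figure D2:**
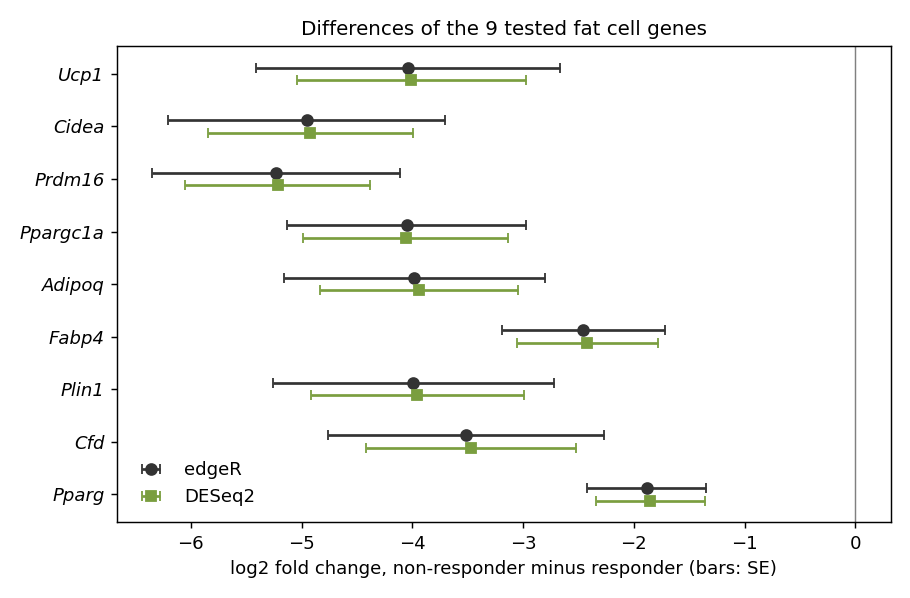
Log2 fold change of the 9 tested genes, non-responder minus responder, with standard errors, in edgeR (circles) and DESeq2 (squares). All 9 lie below 0, from -5.23 for Prdm16 to -1.88 for Pparg in edgeR, and the DESeq2 estimates lie close to them.

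The other 9 genes were set against Adipoq within each tumour, as the share of the counts of both genes that fell on the gene in question, with exact 95% binomial intervals that cover counting error only. For genes with a steady ratio to Adipoq these shares would be alike in all tumours. Plin1 came near to that, with 27.5% to 37.4% of its counts with Adipoq over the 10 tumours with at least 50 counts on the pair. Cfd took 75.7% to 89.9% over 12 tumours. Its share was 75.7% to 84.6% in responders and 84.7% to 89.9% in non-responders. The nearest were responder 4 at 84.6% (84.2 to 84.9%) and non-responder 4 at 84.7% (81.4 to 87.7%), whose intervals overlap. That difference between groups was seen in the shares, was not tested and was not set against other pairs of genes. The other general fat genes did not keep such a ratio. Pparg took 15.1% in responder 4, with 984 counts beside 5531 of Adipoq, and 91.4% in responder 8, with 170 beside 16. Fabp4 took 78.1% (77.6 to 78.6%) in responder 4 and 98.5% (97.6 to 99.1%) in responder 8. Wide and narrow ranges thus occurred among brown and among general fat genes. Widths in percent compare poorly between genes, since a given change in ratio moves a share less near either end of the scale. Ppargc1a, at low counts, took 3.32% to 8.18% over 10 tumours.

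Ucp1 took from 3.23% to 55.3% of its counts with Adipoq over the 10 tumours with at least 50 counts. Responder 1 was at 55.3% (52.6 to 58.0%) and responder 5 at 50.6% (48.7 to 52.5%). Responder 4, the tumour richest in Adipoq, was at 21.1% (20.2 to 22.1%). Responder 7 was at 3.23% (2.06 to 4.80%), with 23 counts of Ucp1 beside 690 of Adipoq. These 4 intervals do not overlap, though those of responders 1 and 5 nearly touch, at 52.6% and 52.5%. Among the non-responders, number 3 was at 50.4% (41.1 to 59.7%) and number 4 at 23.9% (16.2 to 33.0%). Responder 8 (3 and 16 counts) and non-responder 1 (2 and 13 counts) were too sparse to place.

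Cidea did not share the low value of responder 7. It took 25.2% (22.5 to 28.2%) of its counts with Adipoq there and 25.1% (23.2 to 27.2%) in responder 5. Its share was 14.1% (11.6 to 17.0%) in responder 1, where that of Ucp1 was highest, and 39.2% (36.8 to 41.5%) in responder 6. Non-responders 2, 3 and 4 were at 11.6%, 15.7% and 19.4%, below every responder but responder 1. Non-responder 1 held 1 count of Cidea beside 13 of Adipoq. A difference in this share by response label was not tested. Both genes are known for brown fat, yet their order over tumours differed.

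Prdm16 had the widest range of the 9 genes against Adipoq, from 3.25% in responder 1, where 20 counts stood beside 595 of Adipoq, to 92.0% (87.4 to 95.4%) in responder 8, where 185 counts of Prdm16 stood beside 16 of Adipoq. In responder 7 it took 67.6% (65.6 to 69.6%). Responder 4, the top tumour for 8 of the 10 genes, was at 7.38% (6.73 to 8.08%).

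Leptin was set against Adipoq in the same way. It took 8.85% (6.92 to 11.1%) in responder 7, the tumour with the lowest Ucp1 share, and 4.67% (4.14 to 5.25%) in responder 4. Responder 5, highest in Ucp1, had 7 counts of Lep beside 1373 of Adipoq, or 0.507% (0.204 to 1.04%). Responder 7 was the single tumour in which Lep outnumbered Ucp1, at 67 to 23 counts, whereas in responder 5 the counts were 7 to 1406.

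**Figure D3:**
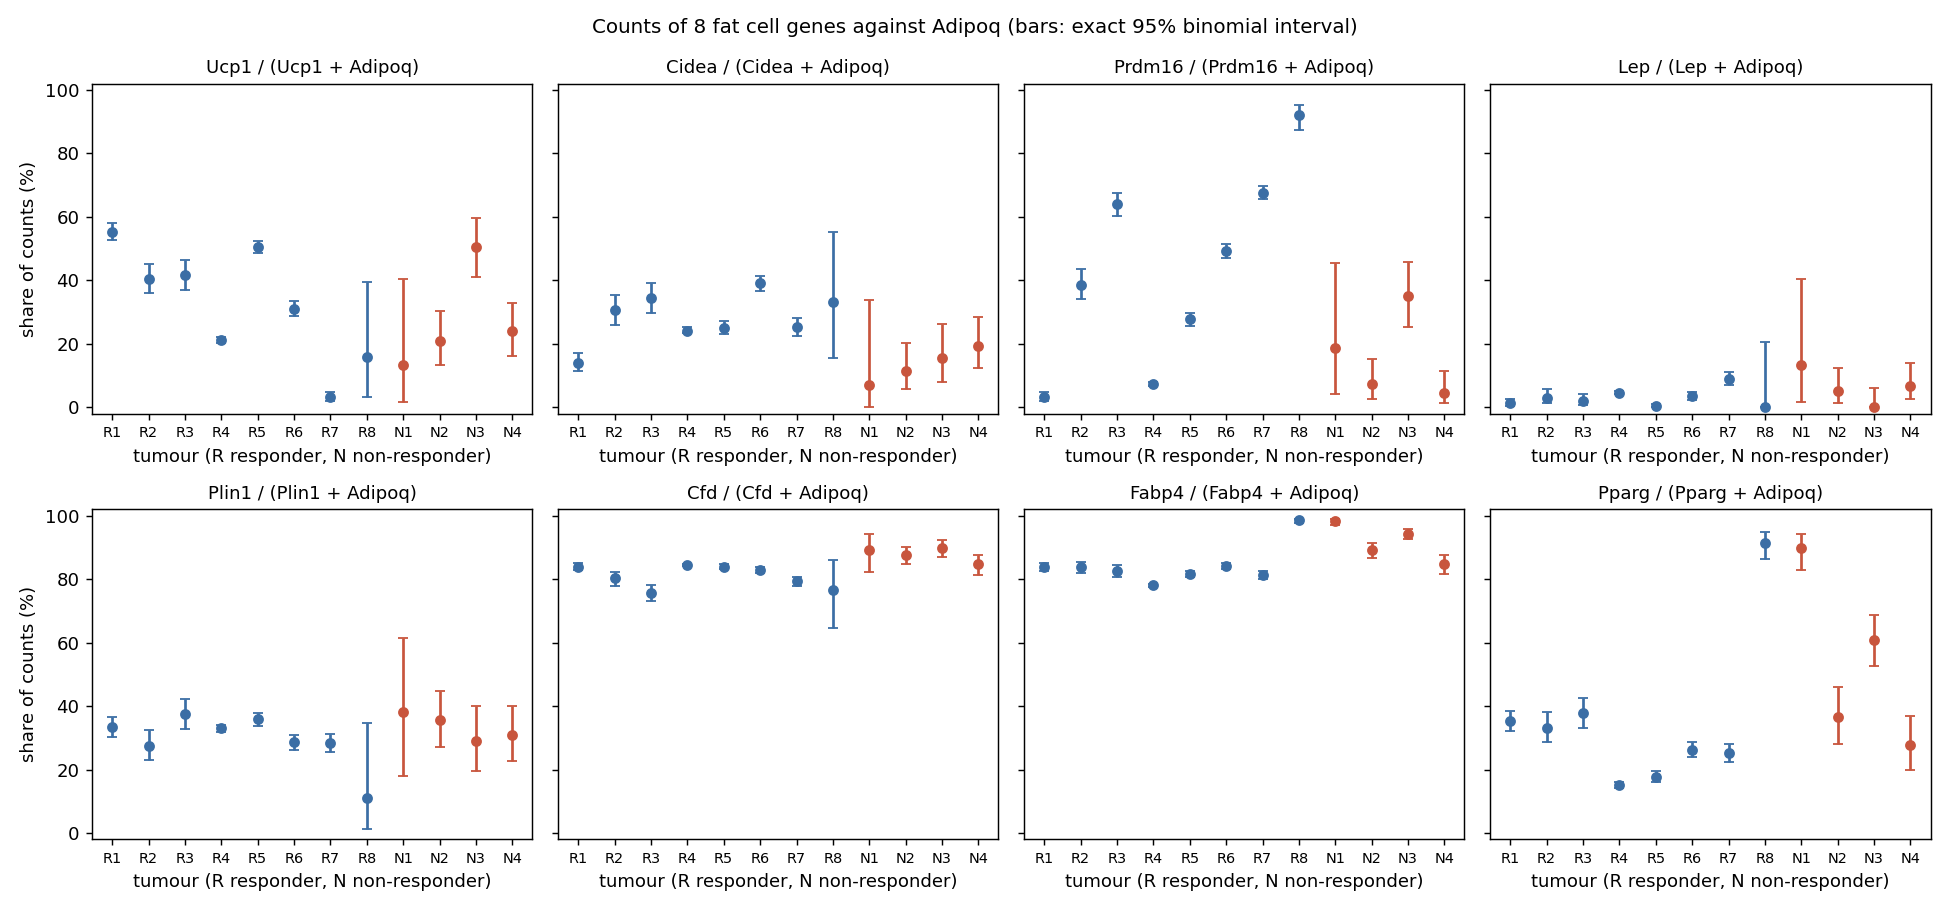
Share of the counts of each gene and Adipoq that fell on the gene, in percent, for Ucp1, Cidea, Prdm16, Lep, Plin1, Cfd, Fabp4 and Pparg in each tumour (R responder, N non-responder), with exact 95% binomial intervals. Plin1 keeps to a narrow band in tumours with many counts, and Cfd lies at 75.7% to 89.9%. Ucp1 runs from 3.23% to 55.3% where counts suffice, Prdm16 from 3.25% to 92.0% and Pparg from 15.1% to 91.4%.

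The balance of Ucp1 to Adipoq did not separate the response groups. Its log2 ratio averaged -1.29 ± 1.62 over the 8 responders (SD) and -1.35 ± 0.93 over the 4 non-responders (difference -0.06, exact permutation test two-sided, p = 0.947). Values ran from -4.78 to 0.31 in responders and from -1.97 to 0.02 in non-responders. With 1 tumour left out, the difference lay between -0.55, without responder 7, and 0.17, without responder 1. Its sign turned in 7 of the 12 cases. The sparse tumours responder 8 (3 and 16 counts) and non-responder 1 (2 and 13 counts) were included. The difference was -0.13 without the first and 0.15 without the second. With 4 non-responders and this spread, the test cannot show that the groups are alike. It covers Ucp1 alone, and the ratios of the other brown genes to Adipoq were not tested.

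Levels of different genes were compared per kilobase of exon (GENCODE M21 models, which need not be those used in counting). The order of the medians over 12 tumours was Cfd (42.4 CPM per kb), Fabp4 (12.0), Adipoq (7.90), Cidea (3.80), Ucp1 (3.09), Pparg (2.28), Plin1 (1.15), Prdm16 (0.760), Ppargc1a (0.0853) and Lep (0.0833). Fabp4 was above Adipoq and Adipoq above Cidea in 12 of 12 tumours, and Cfd above Fabp4 in 10. Cidea and Ucp1 were not ordered, since each was the higher in 6 tumours, and the same held for Ppargc1a and Lep. Ucp1 was above Pparg, and Plin1 above Prdm16, in 8 of 12.

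The likeness of tumour profiles was described by Pearson's r of log2 CPM over the 12 tumours. These tumours share the groups and the makeup of their pieces, and the values carry no test. The symbols most like Adipoq were Adig (r = 0.994), Ntrk2 (0.991), Cidec (0.989), Slc36a2 (0.988), Plin1 (0.988), Car3 (0.984), Cfd (0.981) and Acsm3 (0.980). Among them Plin1 and Cfd are members, Adig, Cidec and Car3 are further known fat cell genes, and Slc36a2 is on the brown programme list below. Those most like Ucp1 were less close, namely Scd1 (0.907), Mmd2 (0.907), Clec3b (0.906), Itih4 (0.900), Xirp2 (0.899), Lgi4 (0.898), Gpd1 (0.896) and Tnxb (0.895). Of the 18611 other genes, Adipoq stood at rank 18 and Cidea at rank 51 in likeness to Ucp1. Prdm16, with r = 0.436, stood at rank 3221 for Ucp1 and at 2141 for Adipoq (r = 0.612). Between the 9 tested members, r was 0.618 to 0.988 over the 28 pairs without Prdm16, and 0.436 to 0.761 over its 8 pairs.

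Further genes of the brown programme gave a mixed picture. Of 18 listed, 17 were in the table and 16 were tested, with 13 below 0 and 3 above in non-responders, where 51.5% of all tested genes were below 0. Zic1, with 23 counts in total over 12 tumours, did not pass the filter on low counts. None of the 16 passed in edgeR. At an unadjusted p under 0.05, 7 were lower and 0 higher (16.1% and 7.73% of all genes). DESeq2 called 7, all as lower (10.5% of all genes), and limma-voom 1, Esrrg (4.48%). That count of 1 is near what this share of 16 genes gives. The median log2 fold change was -1.20, against -0.02 over all tested genes. Slc36a2, an amino acid transporter gene of fat cells, was at 11.2 ± 15.6 CPM (SD) in responders against 0.628 ± 0.299 in non-responders (-4.14, SE 1.12). The potassium channel gene Kcnk3 was at 4.39 ± 4.46 and 0.254 ± 0.218 CPM (-4.08, SE 1.10). Esrrg, an oestrogen-related receptor gene of oxidative tissues, was at 1.36 ± 0.97 and 0.241 ± 0.155 CPM (-2.47, SE 0.71). These 3 had an edgeR adjusted p of 0.117. Dio2, whose enzyme activates thyroid hormone in brown fat, did not follow them, at 9.33 ± 7.18 and 11.3 ± 5.43 CPM (0.28, SE 0.73, adjusted p = 0.846 in edgeR). Gmpr was at 7.08 and 13.3 CPM on average (0.91, SE 0.45, adjusted p = 0.235 in edgeR).

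Of 11 genes enriched in white fat, 7 were tested, all 7 below 0 (51.5% of all genes), with a median log2 fold change of -2.14. EdgeR called 0, 5 were lower at an unadjusted p under 0.05 (16.1% of all genes), DESeq2 called 3 as lower (10.5%) and limma-voom 0 (4.48%). Hoxc8, Hoxc9, Hoxc10 and Tcf21 did not pass the filter on low counts, with 20, 60, 9 and 57 counts in total over 12 tumours. Retn, the gene of the hormone resistin, was at 6.96 ± 9.02 CPM in responders against 0.704 ± 0.718 CPM in non-responders. Nnat, the gene of neuronatin, stood at 40.0 CPM in responder 4 and at 2.42 CPM or less in the other 11 tumours. Sncg had a log2 fold change of -2.14 (SE 0.79, adjusted p = 0.138 in edgeR). Gsn, which many cell types express, was at 257 ± 154 and 116 ± 26.8 CPM, and Dpt, a matrix gene, at 16.3 ± 11.6 and 8.23 ± 2.51 CPM.

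Enzymes and carriers of fat storage lay mostly below 0, with little difference for Fasn, Acly and Acaca. Of 29 genes tested, 27 were below 0, where 51.5% of all genes were (median -1.68). EdgeR called 0, and at an unadjusted p under 0.05, 20 were lower (16.1% of all genes) and 0 higher (7.73%). DESeq2 called 15 as lower (10.5% of all genes) and limma-voom 3 (4.48%). Trarg1 (-2.66, SE 0.60), the insulin-responsive glucose carrier gene Slc2a4 (-3.28, SE 0.87) and Lgals12 (-3.36, SE 0.94) had the lowest p, each with an edgeR adjusted p of 0.117. The fatty acid synthesis genes Fasn, Acly and Acaca, which dividing cells also need, were the most abundant of the list. Fasn was at 720 ± 190 and 557 ± 90.5 CPM (-0.37, SE 0.23), Acly at 494 ± 185 and 462 ± 38.7 CPM (-0.10, SE 0.27) and Acaca at 210.0 ± 66.0 and 232 ± 55.8 CPM (0.14, SE 0.24). The edgeR adjusted p of these 3 was 0.331, 0.856 and 0.746, on a scale where none of the genes tested passed.

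Transcription factors of fat cell formation differed in size. All 9 were below 0 (median -1.48), beside 51.5% of all genes. EdgeR called 0, 6 were lower at an unadjusted p under 0.05 (16.1% of all genes), DESeq2 called 5 as lower (10.5%) and limma-voom 2 (4.48%). Cebpd, an early factor, was at 17.0 ± 13.3 and 4.16 ± 0.947 CPM (-2.03, SE 0.58), and Klf15 at 6.48 ± 6.52 and 0.802 ± 0.802 CPM (-3.01, SE 0.92). Ebf1 (-2.35, SE 0.76) is a factor of B cells as well as of fat cells. Cebpa was at 34.9 ± 29.1 and 13.8 ± 3.41 CPM, and Rxra, which encodes the partner of PPARgamma, at 62.7 ± 37.6 and 22.5 ± 11.2 CPM. Srebf1 was level, at 173 ± 43.6 and 170 ± 22.4 CPM (-0.03, SE 0.21).

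Relatives of the members from the same gene families or receptors were set beside them. Among these, Cidec and Plin4 are also counted above with the fat storage genes, and Ppara with the brown programme. Of 17, 12 were below 0 and 5 above (median -0.26), beside 51.5% of all genes below 0. EdgeR called 0, and at an unadjusted p under 0.05, 6 were lower (16.1% of all genes) and 2 higher (7.73%). DESeq2 called 6 as lower (10.5%) and limma-voom 1 (4.48%). The counts of 2 and of 1 are near what those shares of 17 genes give. Ucp2, the uncoupling protein gene of lymphocytes and many other cells, was at 162 ± 43.3 CPM in responders against 243 ± 64.4 CPM in non-responders (0.58, SE 0.22, adjusted p = 0.151 in edgeR). Fabp5, the fatty acid carrier gene of skin and immune cells, was at 100.2 ± 26.1 and 170.2 ± 89.2 CPM (0.76, SE 0.30, adjusted p = 0.154 in edgeR), and these were the 2 that were higher. Adipor2, which encodes an adiponectin receptor, was at 123 ± 36.7 and 104 ± 5.60 CPM. Among the relatives made by fat cells, Cidec had a log2 fold change of -4.20 (SE 1.24), Plin4 of -3.55 (SE 1.03) and Plin5 of -3.52 (SE 0.93), each with an edgeR adjusted p of 0.117. Per kilobase, the median of Ucp2 over 12 tumours was 23.5 CPM per kb beside 3.09 for Ucp1.

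Markers of several other cell types also had lower levels in non-responders, and their part in the differences was not tested. The shares of all genes to read these counts against are 51.5% below 0, 16.1% lower at an unadjusted p under 0.05, 10.5% called as lower by DESeq2 and 4.48% by limma-voom. Of 8 heart muscle genes, 8 were below 0 in non-responders, 7 had an unadjusted p under 0.05, and DESeq2 called 6. Their summed level was 7.97 to 578 CPM in responders and 9.62 to 69.8 CPM in non-responders. It was highest in responders 4 (578 CPM) and 6 (478 CPM), and low in responder 1 (18.3 CPM), where Ucp1 was at 27.7 CPM. Myh6, the atrial and ventricular myosin gene, was at 292 CPM in responder 4, and Nppa was at 0 counts in non-responder 3. Of 8 skeletal muscle genes, 8 were below 0, 5 had an unadjusted p under 0.05 and DESeq2 called 5, with summed levels of 11.8 to 185 and 9.61 to 26.5 CPM. Limma-voom called 0 of the heart and 0 of the skeletal muscle genes. Myh2 was at 0 counts in non-responders 1, 2 and 3.

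Genes of endothelium, which also expresses Fabp4, were below 0 in 10 of 10, with 7 at an unadjusted p under 0.05, 6 called by DESeq2 and 1, Emcn, by limma-voom. They summed to 168 to 664 CPM in responders and to 115 to 172 CPM in the other group. Of 10 genes of macrophages, which can express Pparg and Fabp4, 8 were below 0 and 3 had an unadjusted p under 0.05. DESeq2 called 1, Marco, and limma-voom 0. The 10 genes summed to 462 to 1913 CPM in responders and to 514 to 1462 CPM in non-responders. In responder 1 they summed to 1794 CPM, close to the 1913 CPM of responder 4, while Adipoq was at 22.4 and 180 CPM in these tumours.

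Fibroblast genes were below 0 in 5 of 10 (362 to 1829 and 761 to 1509 CPM). At an unadjusted p under 0.05, Dcn, Pdgfra, Pi16 and Postn were lower and Fbln1 was higher. The count of 1 higher is near the 7.73% of all genes in that direction. DESeq2 called Dcn and Pdgfra, and limma-voom called Dcn. The B-cell list holds Ebf1, which is counted above among the fat cell factors. Its other 5 genes were all below 0, each at an unadjusted p under 0.05 and each called by DESeq2, while limma-voom called 0. They summed to 16.8 to 211 and 12.3 to 37.4 CPM. Thymic epithelial genes were below 0 in 8 of 8 (34.5 to 255 and 16.8 to 168 CPM). Of these, 4 had an unadjusted p under 0.05, DESeq2 called 2 and limma-voom 0. Foxn1 was at 0 counts in responder 3 and non-responder 2. None of the genes of these 7 cell types passed in edgeR. DESeq2 calls in non-responders were thus not limited to the fat genes.

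T-cell genes, which define the labelled tumour type, were abundant in every tumour. Their list holds 8 T-cell genes and Ptprc, the gene of CD45, which all white blood cells carry. None of the 9 was below 0, and Thy1 was higher at an unadjusted p under 0.05 and in limma-voom. That count of 1 of 9 is near the 7.73% of all genes that were higher at this unadjusted p. The share of all genes higher in limma-voom was not computed. The 8 genes without Ptprc summed to 546 to 3235 CPM in responders and to 2013 to 3358 CPM in non-responders, and none was at 0 counts. Their lowest sum, 546 CPM, was in responder 4, the tumour with the highest level of 8 of the 10 fat genes. The heat map sets these lists side by side.

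**Figure D4:**
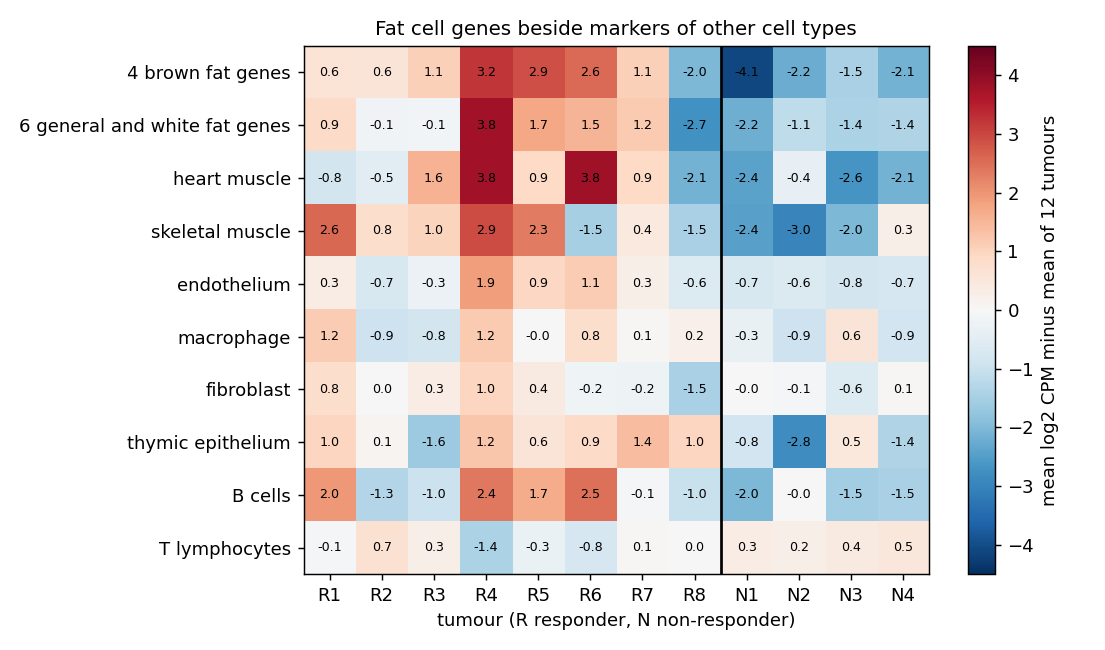
Mean log2 CPM of each gene list in each tumour (R responder, N non-responder), minus the mean of the list over 12 tumours; red is higher and blue lower. The brown genes run from -4.09 in non-responder 1 to 3.23 in responder 4 and the T lymphocyte genes, here with Ptprc, from -1.41 in responder 4 to 0.68, while heart muscle genes peak in responders 4 and 6 and skeletal muscle genes in responders 1, 4 and 5.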

How the data were processed

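RNA from 12 tumours was sequenced as 75-base paired reads with 4 libraries to a lane, per the labels' protocols. The authors deposited raw counts per Ensembl gene, which were used as they stand; HTSeq and DESeq are named without versions in the submitters' processing notes. Those notes name the build NCBIM37 and the labels' extract protocol mm10, with aligner and strand setting not given in the sources used here. Symbols matched 32919 of the 37991 identifiers (GENCODE M21, GRCm38), which gave the coordinates and exon lengths. 1 identifier of the lists, that of Lhx8, matched no row. Exons of Prdm16 overlap B230104I21Rik on the opposite strand; the other 9 overlap no gene. Promoter windows came from RefSeq (GRCm38.p6); Cidea and Fabp4 were not used there.

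Libraries held 20796860 to 30265753 counts. No 2 libraries were repeats (lowest chi-square per degree of freedom 44.2 over 66 pairs). Replicates are labelled as independent tumours. Genes were filtered with filterByExpr (18612 left), scaled by TMM and tested with edgeR 4.0.16 (quasi-likelihood, robust; R 4.3.3) over all genes, Benjamini-Hochberg adjusted, threshold 0.05. Log2 CPM used a prior count of 2, and each SE came from the F statistic. The procedure was tested on simulated data. Alternatives were RLE scaling, no filter, 1 CPM in 4 libraries, DESeq2 1.42.0, limma-voom (limma 3.58.1) with quality weights, a prior count of 0.5 for the ratio, and leaving out each tumour. The members, the lists and the rules were chosen with earlier results of these data known. Named genes are the 10 members, the 3 most abundant and 3 lowest-p genes of each fat list, and the 8 symbols most like Ucp1 and Adipoq, with predicted genes passed over. Other genes named with values were chosen after their values were seen.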

Additional observations from a re-analysis of the deposited data

Results flagged for a closer look

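Of 78 groups of values (members, the Ucp1 to Adipoq ratio and named fat genes, in 8 responders or 4 non-responders), 23 held a tumour that stood apart from the rest of its group by Dixon's criterion at 95%. Chance flags about 1 group in 20 only where values are normally distributed. CPM values are skewed toward high levels, and all groups but those of the ratio were judged on that scale. The number of flags was therefore not set against chance. Groups are not independent either, since 21 of the 23 concern responder 4.

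Responder 4 stood above the other responders for 7 members. Cidea was at 57.6 CPM there (next 22.4), Adipoq at 180 (56.2), Fabp4 at 643 (250), Plin1 at 88.7 (31.3), Cfd at 987 (294), Lep at 8.82 (2.50) and Pparg at 32.0 CPM (12.3). Ucp1, Prdm16 and Ppargc1a were not among them. The same tumour stood above the others for 14 further fat genes. These were Slc36a2 at 48.7 CPM, Gsn at 584, Retn at 27.3, Sncg at 15.1, Nnat at 40.0, Trarg1 at 19.9, Slc2a4 at 31.3 and Lgals12 at 12.1 CPM. They also included Cebpa at 103 CPM, Cebpd at 46.8, Klf15 at 21.1, Adipor2 at 201, Plin4 at 338 and Cidec at 195 CPM.

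Responder 7 stood below the other responders in the Ucp1 to Adipoq log2 ratio, at -4.78 beside -1.90 in the next tumour. Non-responder 3 stood above the other non-responders for Prdm16, at 1.47 CPM beside 0.294 CPM.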

How the results depend on the processing

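The 165 fold changes of single members under the alternatives were all below 0, and 11 of them passed, 9 in DESeq2 and 2 in limma-voom. The number of members passing was 0 in edgeR with RLE scaling, no filter and 1 CPM in 4 libraries, 9 in DESeq2 and 2 in limma-voom. The number lower at an unadjusted p under 0.05 was 9 in the reported fit and 5 in limma-voom. In DESeq2, 7 brown programme, 3 white-enriched, 15 fat storage and 5 transcription factor genes and 6 relatives passed, and in limma-voom 1, 0, 3, 2 and 1. With 1 tumour left out, only edgeR was refitted, and its counts of passing genes stayed at 0 (0 to 0). DESeq2 and limma-voom were not refitted in that way. In those edgeR fits, members lower at an unadjusted p under 0.05 numbered 9 to 10. The Ucp1 to Adipoq difference ran from -0.554 to 0.173 (exact permutation p from 0.336 to 0.988). The cause of the differences between tools was not tested. As folds, 8 of the 10 members moved by over 1.5 times with a tumour left out, and Ppargc1a and Pparg did not. Without responder 4, Cidea, Adipoq, Fabp4, Plin1, Cfd and Lep moved by 1.57 to 2.33 times, toward 0. Without non-responder 3, Ucp1 moved by 1.64 and Prdm16 by 2.48 times, and without non-responder 4, Lep by 1.57 times, away from 0. No paired analysis was possible because the labels give the tumours no numbers shared between groups. Depth limits Lep and Ppargc1a, and Ucp1, Cidea and Plin1 in responder 8 and non-responder 1. It also limits Prdm16 in non-responders 1, 2 and 4, at 3, 6 and 4 counts.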

Other observations

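Otop1, a proton channel gene on the brown programme list, went its own way in 1 tumour. It was at 30.9 CPM (630 counts) in non-responder 2 and at 5.53 CPM or less in the other 11 tumours. In the same tumour Ucp1 was at 0.981 CPM and Adipoq at 3.73 CPM. Myl4, the atrial myosin light chain gene, was at 54.2 CPM in non-responder 2, beside 2.58 to 5.72 CPM in the other non-responders, whereas the heart gene Myh6 was at 7.16 CPM there. Both genes were chosen after their values were seen.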
